A study of Mus musculus with 2 samples.

Results

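The genes described here are the 9 that govern uptake, activation and inactivation of cytarabine: Slc29a1, Dck, Cmpk1, Cda, Dctd, Nt5c2, Samhd1, Rrm1 and Rrm2. They were found by matching the accession of each non-control array probe to these symbols, which gave 12 of 39085 probes and 9 of 20614 named genes. Of the 9 genes, 8 were detected on both arrays, as were 10515 genes in all; a probe is called detected where the scanner software marks its spot as clearly over background.

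Leukaemia cells sorted by a metabolic sensor were profiled on microarrays. SoNar is a fluorescent protein sensor of NADH and NAD+, and mouse B-ALL cells, a leukaemia of B-lymphoid precursors, were sorted on the ratio of its signals at 405 and 488 nm. Both groups carry the sensor, came from bone marrow and are labelled 8 weeks of age; each population, SoNar-high or SoNar-low, gave 1 one-colour Agilent array. The titles of the samples name N-myc-high and N-myc-low cells in place of SoNar, and the strain, the driver of the leukaemia, any treatment and the number of animals per sort are not given in the sources used here. With 1 array per group there is no test between them, and precision is limited by the number of arrays.

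Cytarabine is an analogue of deoxycytidine that is used against acute leukaemias and must be turned into its triphosphate inside the cell before it can stop DNA synthesis. The equilibrative transporter ENT1 brings it in, deoxycytidine kinase adds the phosphate that limits the pathway, and UMP/CMP kinase and nucleoside diphosphate kinases add the others. Cytidine deaminase and deoxycytidylate deaminase remove the amino group from the drug and its monophosphate, 5′-nucleotidases can strip the phosphate, SAMHD1 hydrolyses the triphosphate, and ribonucleotide reductase supplies the natural deoxynucleotides that compete with the drug.

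No cytarabine gene differed by 2-fold between the arrays, against 6.79% of the 10515 measured genes. The phosphohydrolase gene Samhd1 was furthest above on the SoNar-high array (1.73-fold) and the kinase gene Dck furthest below (1.74-fold). Rrm2 (1.56-fold) and Cmpk1 (1.54-fold) were higher on the SoNar-high array, while Slc29a1, Rrm1, Dctd and Nt5c2 lay within 1.14-fold of equality. Cda was detected in the SoNar-low population alone, at a signal so low that an equal level would have gone undetected on the SoNar-high array. That array detected 44.8% of all spots, against 72.9% on the SoNar-low array.

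Differences are SoNar-high minus SoNar-low, in log2 of the signal divided by each array's 75th percentile (the scaled signal). The 8 measured genes had a median difference of 0.06, and all 10515 genes had one of 0.22, with the middle 50% between -0.15 and 0.52. Of the 8 genes, 4 were above 0 and 4 below, whereas 66.9% of all genes were above 0. A 1.5-fold limit was passed by 3 genes upwards and 1 downwards, where 20.4% and 10.2% of all genes passed it. The error printed after each signal is the scanner software's own estimate for that spot. The error after a difference or a ratio was computed from these estimates, with spots and probes taken as independent. Neither covers the spread between animals, sorts or labellings, and the gap between probes of a gene is not part of them. For 183 detected probes that the array carries in 10 copies, a difference between single spots had a median SD of 0.14.

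Calls at 2-fold among all genes depended on the scaling between the arrays, so the share of higher calls is given with it. Under the 75th percentile 35.4% of the genes past 2-fold were higher on the SoNar-high array. This share was 96.0% when each array's median was used and 6.69% with the 75th percentile of detected probes. These scalings put the median gene at 0.79 and -0.07. Each member is therefore also given relative to the median gene, a distance that such a shift cannot alter. It does not remove a difference that varies with signal level. The median gene was 0.22 in the main processing and 0.39 with the brighter 50% of probes.

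**Figure D1:**
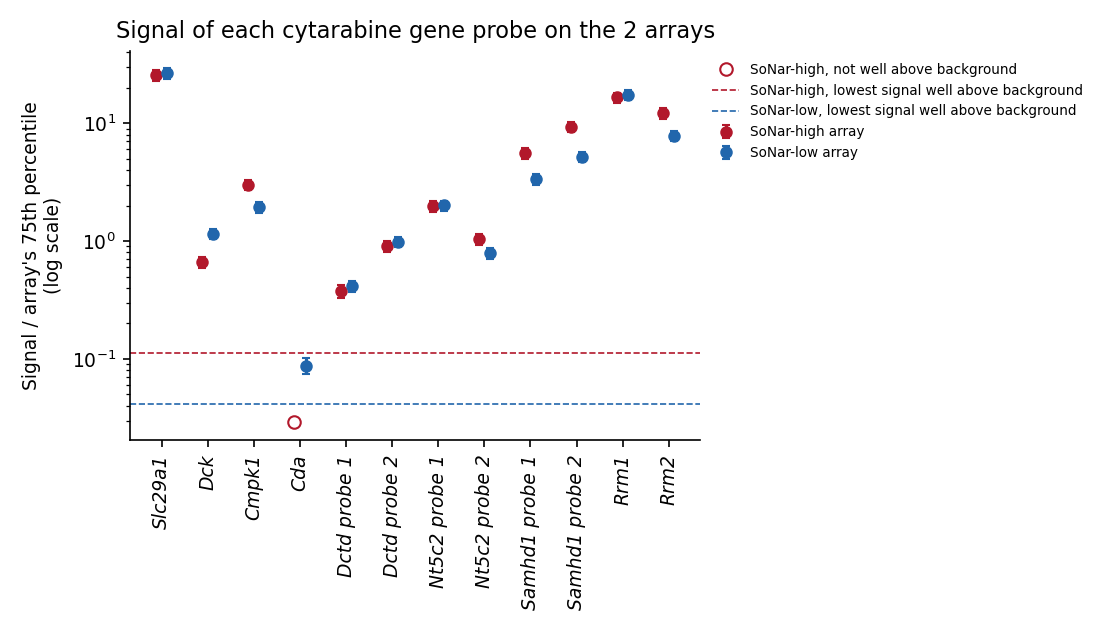
Scaled signal (signal divided by the array's 75th percentile, log axis) of the 12 probes of the 9 cytarabine genes on the SoNar-high and the SoNar-low array; bars are the scanner software's error and dashed lines the lowest detected signal. Probe brightness differs between genes, so only the pair of points within a probe can be compared: Dck is higher on the SoNar-low array (1.15 against 0.661), and both Samhd1 probes are higher on the SoNar-high array.

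Uptake comes first. Slc29a1 encodes ENT1, the carrier through which cytarabine enters most leukaemia cells. Its probe had a scaled signal of 25.5 ± 2.55 in SoNar-high and 26.5 ± 2.65 in SoNar-low cells. The values lay closer together than their error, and the difference was -0.06 ± 0.20, or -0.28 from the median gene. Of all genes 29.4% had a lower difference. The transporter transcript was thus at nearly the same scaled signal in both populations.

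Dck encodes the kinase that puts the initial phosphate on cytarabine, and its loss is a known route to resistance in cultured leukaemia cells. The background-subtracted signal of its probe was 270.1 ± 29.5 units in SoNar-high and 540.6 ± 54.2 units in SoNar-low cells, which is 0.661 ± 0.072 and 1.15 ± 0.12 after scaling. The SoNar-low array was the brighter, and the errors of the scaled signals did not overlap. The difference was -0.80 ± 0.21, lower than that of 93.3% of all genes. Relative to the median gene it was -1.02, which narrowly passes 2-fold, and 7.05% of all genes passed 2-fold downwards on that scale. Some alternative processings brought this distance under 2-fold. Dck and the median gene stood at -0.91 and 0.05 with loess, -0.70 and 0.21 with normexp, and -0.71 and 0.22 in the series matrix. The probe was the only one for the gene, so nothing within an array checks it.

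Cmpk1 encodes UMP/CMP kinase, which turns the monophosphate of the drug into its diphosphate. Its scaled signal was 2.99 ± 0.30 in SoNar-high and 1.94 ± 0.19 in SoNar-low cells. The SoNar-high array was the brighter, with a difference of 0.63 ± 0.20, or 0.40 from the median gene, and 17.7% of all genes had a higher one. The kinases of the activation path therefore lay on opposite sides of the median gene, and the Cmpk1 to Dck ratio was 2.69-fold higher on the SoNar-high array (1.42 ± 0.30 in log2).

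Inactivation begins with Cda, the cytidine deaminase that converts cytarabine to the inactive uracil arabinoside. Its single probe gave 11.9 ± 11.9 units on the SoNar-high array, where it was not detected, and 41.3 ± 6.36 units on the SoNar-low array, where it was. The raw spot signal was 104 on the SoNar-high array, where 7 of 153 negative control spots were as bright or brighter, and 135 on the SoNar-low array, where 1 of 153 was. The lowest detected scaled signal was 0.113 on the SoNar-high array, above the 0.0878 of Cda on the SoNar-low array. No fold is given, since an equal level on the SoNar-high array would have gone undetected.

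Cda is abundant in mature granulocytes, so the neutrophil markers are given beside it. All 15 neutrophil markers with a probe were detected on the SoNar-low array and 12 on the SoNar-high array, which missed Mmp8, Mmp9 and Cxcr2. Of all spots 72.9% were detected on the SoNar-low and 44.8% on the SoNar-high array. A missed gene need not be lower. Mmp8 and Mmp9 were dimmer on the SoNar-high array, but Cxcr2 had scaled signals of 0.0513 in SoNar-high and 0.0477 in SoNar-low cells. Of the 12, 10 were below 0, with a median of -0.53, against 0.03 under median scaling. The summed scaled signal of the list was 110 for SoNar-high and 138 for SoNar-low cells, of which Csf3r alone made up 65.8 and 84.6. Their part in the Cda signal was not tested. In sorted bulk RNA fewer cells of a type and less RNA per cell cannot be told apart.

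Dctd encodes deoxycytidylate deaminase, which acts on the monophosphates of deoxycytidine and of the drug. Its probes had scaled signals of 0.379 ± 0.048 and 0.909 ± 0.094 in SoNar-high cells. In SoNar-low cells they had 0.412 ± 0.042 and 0.991 ± 0.0995. Both probes were slightly brighter on the SoNar-low array, with differences of -0.12 and -0.13 that lay 0.0038 apart. The gene stood at -0.12 ± 0.16, or -0.35 from the median gene.

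Nt5c2 encodes the cytosolic nucleotidase cN-II, which dephosphorylates purine nucleotides above all and is recurrently mutated in relapsed acute lymphoblastic leukaemia. Its probes had scaled signals of 1.97 ± 0.20 and 1.04 ± 0.11 in SoNar-high cells. In SoNar-low cells they had 2.004 ± 0.20 and 0.788 ± 0.079. The probes disagreed: one gave -0.03 and the other 0.40, a gap of 0.42. The gene mean of 0.19 ± 0.15 lay -0.04 from the median gene. Over the 2392 genes with several measured probes, the median SD between probes was 0.32, against 0.30 for Nt5c2, 0.09 for Samhd1 and 0.0027 for Dctd.

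Samhd1 encodes the deoxynucleotide triphosphohydrolase that cleaves cytarabine triphosphate, the active form. The probe for accession NM_018851 had a scaled signal of 5.56 ± 0.56 in SoNar-high and 3.35 ± 0.34 in SoNar-low cells. The probe for accession NM_001139520 had 9.37 ± 0.94 and 5.17 ± 0.52, in the same order. Both probes were brighter on the SoNar-high array by more than their errors, with differences of 0.73 ± 0.20 and 0.86 ± 0.20. The gene stood at 0.79 ± 0.14, above 91.8% of all genes, and at 0.57 from the median gene.

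Samhd1 is abundant in myeloid cells, and the markers of those cells are given beside it. Of 13 monocyte and macrophage markers with a probe, 11 were detected on the SoNar-low and 5 on the SoNar-high array; 4 of these 5 were below 0, with a median of -0.42, against 0.15 under median scaling. Lyz2, Cd14, C1qa, C1qc, Fcgr1 and Vcam1 were missed by the SoNar-high array, which detected 44.8% of all spots against 72.9% on the SoNar-low array. All of them were dimmer on the SoNar-high array, but Cd14 was nearly equal (scaled signals 0.119 and 0.121). Summed over the list, the scaled signal was 1.56 in SoNar-high and 2.36 in SoNar-low cells.

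The ribonucleotide reductase genes come last. Rrm1 encodes the large subunit, which holds the active site, and Rrm2 the small subunit, whose level rises in S phase. Rrm1 had a scaled signal of 16.5 ± 1.65 in SoNar-high and 17.4 ± 1.74 in SoNar-low cells, a difference of -0.08 ± 0.20. Rrm2 had 12.2 ± 1.22 and 7.79 ± 0.78 in the same order, a difference of 0.64 ± 0.20. The small subunit was thus brighter on the SoNar-high array by more than its error, and the large one differed by less than its error. Relative to the median gene they stood at 0.42 (Rrm2) and -0.30 (Rrm1), and the Rrm2 to Rrm1 ratio was 1.65-fold higher on the SoNar-high array (0.72 ± 0.29 in log2). Among all pairs of measured genes 32.5% differed as far. Rrm2b, the alternative small subunit that p53 induces, was detected in SoNar-low cells alone, by both of its probes. Its brighter probe had a scaled signal of 0.252 there, 2.22-fold above the lowest detected signal of the SoNar-high array (0.113). The dimmer one (0.0445) lay under that signal and gave no fold.

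Genes of S phase are given beside Rrm2. Of 24, 23 were measured, with a median of 0.34; 16 were above 0 and 14 above the median gene. Their median stood 0.12 above the median gene, but under it with quantile normalization (-0.12), loess (-0.04), the series matrix (-0.10) and the brighter 50% of probes (-0.02). The primase gene Prim1 was highest (0.87). The licensing factor gene Cdc6 was lowest (-1.36) and the only one past 2-fold. Their part in the Rrm2 value was not tested.

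**Figure D2:**
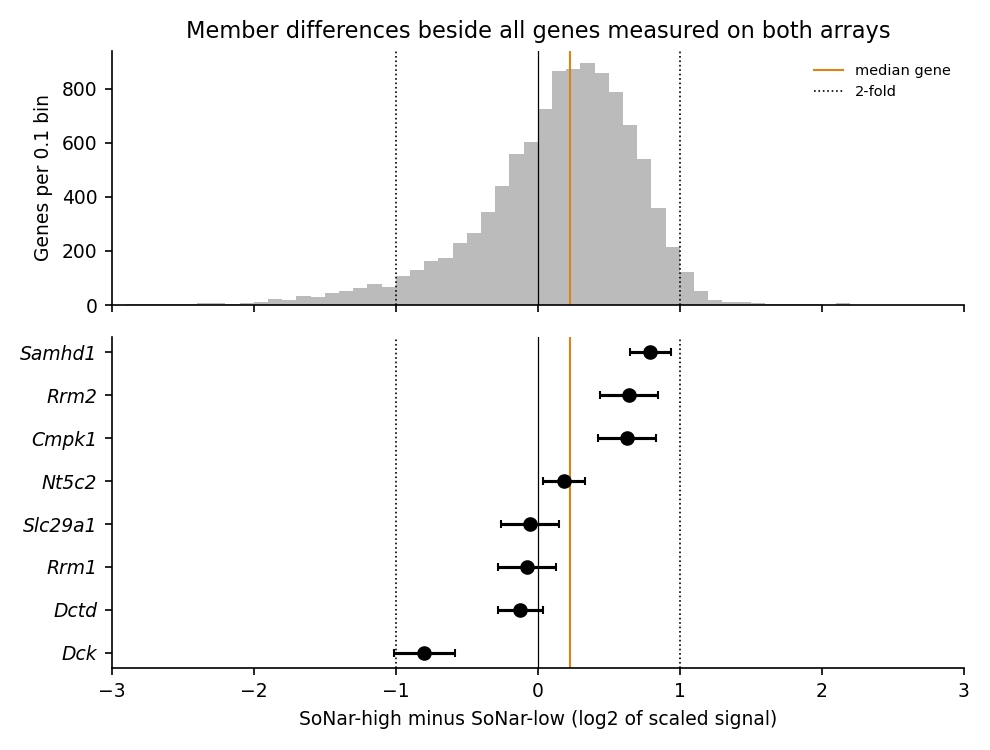
Top, number of genes per bin of 0.1 in the difference SoNar-high minus SoNar-low (log2 of scaled signal) over 10515 genes. Bottom, the 8 measured cytarabine genes with errors computed from the scanner software's estimates per spot. The median gene (0.22) and 2-fold are marked. Samhd1, Rrm2 and Cmpk1 lie to the right of the median gene, Dck alone lies far to the left, and no gene passes 2-fold from 0.

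Ratios between genes on the same array do not depend on the scaling factor of the array, so the members were also compared in pairs. Of the 28 pairs among the 8 measured genes, 3 had a ratio that differed at least 2-fold between the arrays (10.7%), against 19.0% of all 55277355 pairs of measured genes. With no filter on dim probes, which brings in Cda, 10 of 36 pairs (27.8%) differed at least 2-fold, against 38.4% of all pairs, and the brighter 50% of probes, which dropped Dck and Dctd, left 0 of 15 against 11.8%. The other 10 alternatives gave 3 of 28. In the main processing all 3 pairs had Dck as the lower gene. Samhd1 to Dck, the enzyme that cleaves the active drug against the one that starts its activation, was the widest: the ratio was 3.02-fold higher on the SoNar-high array (1.59 ± 0.26 in log2), and 5.91% of all gene pairs differed as far. Rrm2 to Dck (2.72-fold) and Cmpk1 to Dck (2.69-fold) followed, and Nt5c2 to Dck (1.98-fold) was next. The closest pair was Rrm2 and Cmpk1, whose ratio differed 1.01-fold.

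The direction held across the alternative processings for the genes with the largest differences, while the 2-fold call did not. Median scaling put Samhd1, Rrm2 and Cmpk1 past 2-fold upwards, as it did 32.1% of all genes. Dck passed 2-fold downwards with the 75th percentile of detected probes, as did 8.09% of all genes. With dim probes kept in, Cda stood at -1.59, in part against background, and 12.3% of all genes were then past 2-fold downwards. Samhd1 (0.44 to 1.36), Rrm2 (0.28 to 1.21) and Cmpk1 (0.33 to 1.19) were above 0 under all 12 alternatives, and Dck was below 0 (-1.10 to -0.23) under the 11 that kept its probe. Several of these alternatives leave the signal of a probe as it was, so they are not separate checks. The ratio of Samhd1 to Dck stayed between 1.24 and 1.66 in log2 under those 11. The other genes changed sign under at least 1 alternative. Slc29a1 and Rrm1 were below 0 under 11 of 12 and above it under median scaling alone (0.51 and 0.49). Dctd was above 0 under 3 of 11 and Nt5c2 under 7 of 12. In the authors' deposited series matrix the Dck probe stood at 8.79 in SoNar-high and 9.50 in SoNar-low cells (log2), and the Samhd1 probes at 11.48 and 12.18 against 11.01 and 11.59.

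**Figure D3:**
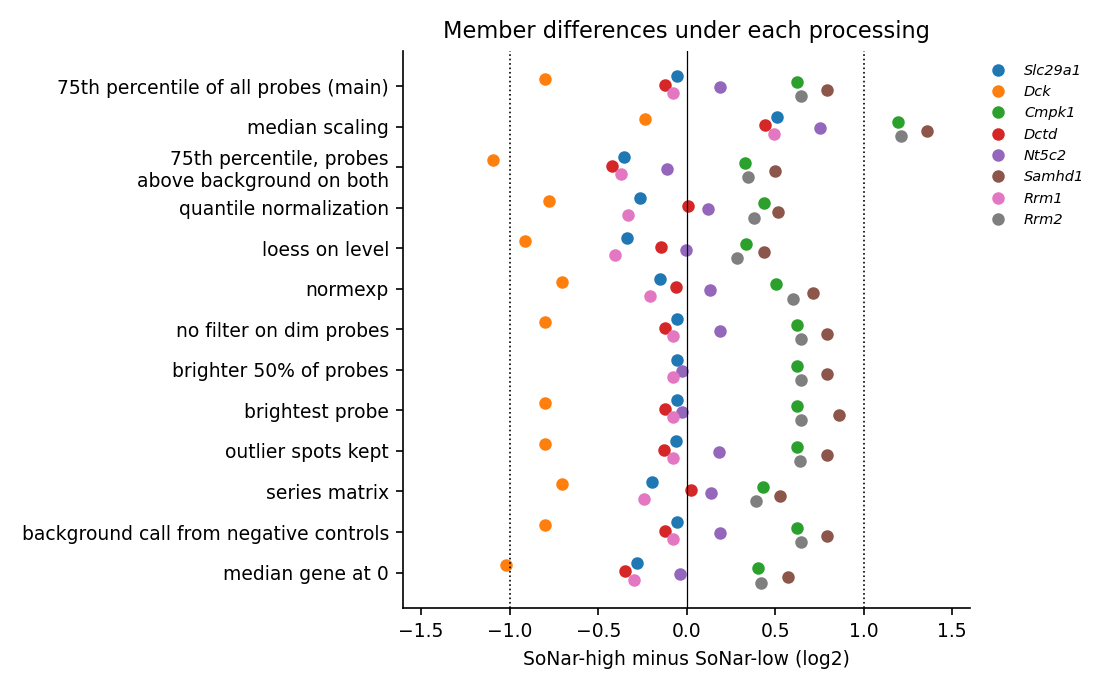
Difference SoNar-high minus SoNar-low (log2) of the 8 measured cytarabine genes under the main processing (top row) and 12 alternatives, with 2-fold marked by dotted lines. The genes keep nearly the same order from Dck on the left to Samhd1 on the right, while a change of scaling moves all of them together, from a median of -0.23 to one of 0.63.

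Promoter sequence is shown for the genes at the ends of the range, Dck and Samhd1, and for the reductase subunits, whose differences were unlike. These are the 250 bases before the annotated start, from RefSeq on GRCm38.p6, written 5′ to 3′ on the strand of the gene: Dck at chr5:88764763-88765012 (plus strand), Samhd1 at chr2:157135097-157135346 (minus strand), Rrm1 at chr7:102441445-102441694 (plus strand) and Rrm2 at chr12:24708004-24708253 (plus strand). Capitals mark GGGCGG (the GC box that Sp1-type factors bind) and CCAAT (the box that NF-Y binds), on either strand.
Dck: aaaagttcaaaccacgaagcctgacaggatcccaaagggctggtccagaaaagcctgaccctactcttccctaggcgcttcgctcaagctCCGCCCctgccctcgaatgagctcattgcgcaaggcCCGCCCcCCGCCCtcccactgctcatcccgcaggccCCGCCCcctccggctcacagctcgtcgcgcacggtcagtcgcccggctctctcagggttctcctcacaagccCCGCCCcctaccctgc
Samhd1: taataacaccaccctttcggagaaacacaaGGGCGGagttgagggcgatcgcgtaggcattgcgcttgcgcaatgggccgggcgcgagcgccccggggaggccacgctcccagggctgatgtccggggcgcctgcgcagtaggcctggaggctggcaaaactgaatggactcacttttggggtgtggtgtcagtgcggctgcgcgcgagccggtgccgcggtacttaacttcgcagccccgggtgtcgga
Rrm1: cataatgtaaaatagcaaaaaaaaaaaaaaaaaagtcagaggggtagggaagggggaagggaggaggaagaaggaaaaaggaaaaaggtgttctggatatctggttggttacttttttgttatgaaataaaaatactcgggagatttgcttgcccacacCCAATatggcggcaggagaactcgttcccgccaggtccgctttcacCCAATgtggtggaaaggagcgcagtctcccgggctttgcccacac
Rrm2: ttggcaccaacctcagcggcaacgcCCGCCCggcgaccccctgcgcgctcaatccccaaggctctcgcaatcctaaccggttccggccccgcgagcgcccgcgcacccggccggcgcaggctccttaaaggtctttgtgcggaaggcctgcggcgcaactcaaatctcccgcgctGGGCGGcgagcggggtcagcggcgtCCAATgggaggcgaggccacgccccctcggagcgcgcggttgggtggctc

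The Dck window held 5 GC boxes and no CCAAT box, and 1.93% of all 32851 promoter windows in the table held at least 5 GC boxes. Such a count was not particular to Dck among the members. A window of Slc29a1, which has 8 windows, also held 5, and a window of Nt5c2, which has 7, held 4. Samhd1 held 1 GC box, Rrm1 held 2 CCAAT boxes and no GC box, and Rrm2 held 2 GC boxes and 1 CCAAT box. In all windows 32.7% held a GC box and 33.8% a CCAAT box. The subunits of one enzyme thus shared the CCAAT letters but not the GC box. None of the 24 windows of the 9 genes held TTTGGCGC, TTTCCCGC, TTTCGCGC or TTTGCCGC, the exact words searched for an E2F site. These can overlap GGGCGG and occurred in 1.86% of all windows. Shorter or looser forms were not searched, so E2F-type sites may be present. The Rrm1 window, for example, holds gttcccgc, which differs from TTTCCCGC in the first letter only. The letters TGACG, the core that CREB-type factors bind, occurred in 17.8% of all windows and in 1 window each of Cmpk1, Slc29a1 and Nt5c2. These are matches of letters only, and the arrays hold no measurement of factor binding.

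Other genes of nucleotide transport, salvage and synthesis were read from 6 fixed lists. Of 61 genes 52 were measured on both arrays, with a median difference of 0.31; 44 were above 0 and 32 above the median gene. Above 0 were 50 of the 52 under median scaling and 27 with the 75th percentile of detected probes. Past 2-fold were 3 upwards (against 2.41% of all genes) and 0 downwards (4.38%). Those scalings gave 21 and 0 upwards, and 0 and 2 downwards. The 3 were Uck1, a uridine-cytidine kinase gene (1.29, scaled signals 27.1 and 11.1), Dguok, which encodes the deoxyguanosine kinase of mitochondria (1.14), and the deaminase-domain gene Cdadc1 (1.04 over its 2 probes).

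Kinases and phosphorylases of nucleosides had a median of 0.55 over 10 of 12 genes, and 9 were above the median gene. The uridine-cytidine kinase relative Uckl1 stood at 0.77, the mitochondrial thymidine kinase gene Tk2 at 0.64 and the S phase thymidine kinase gene Tk1 at 0.47, while the thymidine phosphorylase gene Tymp was lowest (-0.27). Dck was thus the 1 nucleoside kinase named here below 0, as Uck1, Uck2 (0.44), Uckl1, Tk1, Tk2, Dguok and the adenosine kinase gene Adk (0.34) were all above it. These 7 were above 0 under 11 of the 12 alternatives, and the filter for the brighter 50% of probes left 5 of them, also above 0. All 7 stood above Dck under the 11 alternatives that kept the Dck probe. That set was singled out after its values were seen.

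Transporters had a median of 0.55 over 9 of 10 genes. Abcc4, which encodes an exporter of nucleotides and their analogues (0.97), was highest and the concentrative carrier gene Slc28a2 (0.91) next, while the pyrimidine carrier gene Slc28a1 (-0.72) was lowest. Slc28a3, a concentrative carrier that takes up cytarabine, was not detected in SoNar-high cells. Its SoNar-low signal was 1.61-fold above the lowest detected signal of the SoNar-high array. Slc29a2, the equilibrative relative of Slc29a1, stood at 0.00 and the ABC exporter gene Abcc10 at 0.55.

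Nucleotide kinases, which include those that make the triphosphate, had a median of 0.17 over 11 of 11 genes, from Nme4 (0.59) to the interferon-induced Cmpk2 (-0.05). Nme1 stood at 0.46 and Nme2 at -0.04. The nucleotidases had a median of 0.29 over 9 of 12 genes, all above 0, but 4 of 9 with the 75th percentile of detected probes. They ran from Nt5c3 (0.89), which dephosphorylates pyrimidine monophosphates, to Nt5c (0.04). Nt5c1a, Nt5c1b and Nt5e were detected in SoNar-low cells alone, whose array detected 72.9% of all spots against 44.8% for SoNar-high cells. The SoNar-low signals of Nt5c1b and Nt5e lay under the lowest detected signal of the SoNar-high array (0.113), and that of Nt5c1a was close to it (0.119). Deoxynucleotide and pyrimidine synthesis had a median of 0.20 over 10 of 11 genes. Lowest was the gene of thymidylate synthase, Tyms (-0.80), the enzyme that Dctd supplies with dUMP. The CTP synthase gene Ctps stood at 0.85. Of the deaminase relatives 3 of 5 were measured; the 2 probes of Apobec3 lay at -1.16 and 0.81, so its mean of -0.17 describes neither.

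**Figure D4:**
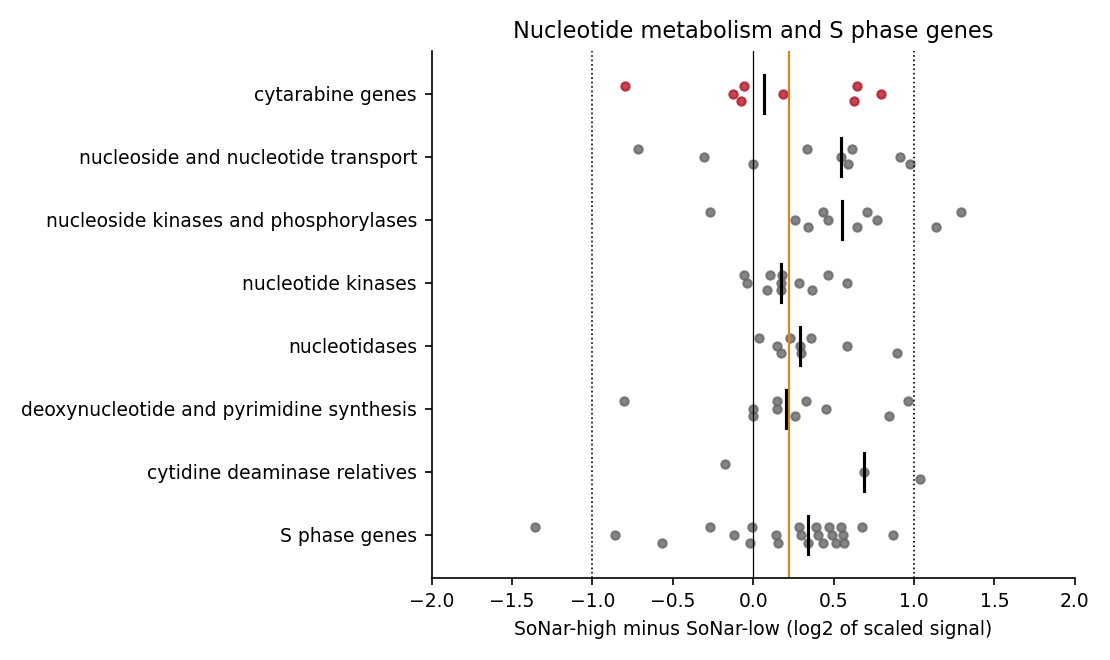
Difference SoNar-high minus SoNar-low (log2 of scaled signal) of each measured gene in the cytarabine set (red), 6 lists of nucleotide metabolism and the S phase list; black bars are list medians, the orange line is the median gene (0.22) and dotted lines mark 2-fold. The cytarabine genes spread from -0.80 to 0.79, and Uck1 (1.29) and Dguok (1.14) lie past 2-fold among the nucleoside kinases.

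Some features of the arrays touch these values. Of 43020 spots 44.8% were detected for SoNar-high and 72.9% for SoNar-low cells, so weakly expressed genes such as Cda are more easily seen on the SoNar-low array. Each array was scanned in its own session, so scan and group cannot be told apart. Of 14 B-lineage markers 11 were detected on both arrays, among them Pax5 and Vpreb1, with a median of 0.31, and Rag1, Rag2 and Igll1 were on neither. Mycn was detected on neither array by its single probe (12.3 and 4.70 units), which alone cannot show that the transcript is absent. Markers of other cells differed too. T and NK cell genes had a median of -0.93 (5 of 7 below 0). Erythroid genes had one of -0.42 (4 of 5) and stroma and endothelium genes -0.80 (4 of 4). Of 9 lung genes 7 were detected in SoNar-low cells alone. Scgb1a1 had scaled signals of 0.113 in SoNar-high and 1.12 in SoNar-low cells, and Sftpa1 0.0493 and 0.835. The gap was smaller for Cldn18 (0.0831 and 0.111). The 2 measured lung genes were Sftpd (-1.87) and Hopx (0.18). With no filter on dim probes, in part against background, the 9 had a median of -2.88. Past 2-fold downwards were then 7, against 12.3% of all genes, and 1 was above 0. The 8 measured brain genes had a median of 1.64, and 7 were above 0. Rtn1 was the highest brain gene (2.93). Past 2-fold were 5 brain genes upwards, against 2.41% of all genes, and 1 downwards (Snap25, -1.04). Of the brain genes, the brighter 50% of probes left Snap25 alone. Under median scaling the erythroid median was 0.15, and the brighter 50% of probes left 2 erythroid and 3 T and NK cell genes, with medians of 0.37 and 0.70. The summed scaled signals on the SoNar-high and SoNar-low arrays were 9.19 and 7.73 for T and NK, 61.3 and 37.7 for erythroid, 1.70 and 2.61 for stroma, 1.94 and 5.08 for lung and 4.99 and 4.08 for brain genes. Such sums mix probes of unlike brightness and rest on the brightest. Hemgn made up 55.7 and 30.1 of the erythroid sums and Snap25 1.36 and 2.78 of the brain sums. Lck (3.64 and 1.83) and Cd2 (3.80 and 2.35) were the brightest T and NK genes. These genes lay on the other side of 0 from their list's median. The part of those cells in the member values was not tested.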

How the data were processed

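RNA of 2 groups was measured on 1 one-colour array each. The authors deposited scanner files with an intensity per spot. Per the file headers they came from Agilent Feature Extraction 11.0.1.1; the submitters' processing notes give 9.1. The processed intensity is background-subtracted and not scaled between arrays, per the file headers. The deposited series matrix holds log2 values whose scaling and centring are not given in the sources used here; its columns ranked probes as the scanner files did (Spearman's rho 1.000 for both arrays across probes) and had medians of 5.86 on both arrays.

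Control spots and spots with outlier flags were left out, spots of a probe were averaged in log2, and each array's 75th percentile (408.9 units for SoNar-high, 470.2 for SoNar-low) was subtracted. Accessions were matched without versions to symbols in a RefSeq table of GRCm38.p6: 27109 of 39085 probes matched. The array design names another build, so the only coordinates given are those of the RefSeq promoter windows, and the files hold no probe sequences, so probe specificity was not checked. Detection is the scanner software's call of a spot well above background. A gene's difference is averaged over the probes detected on both arrays, and the 2-fold limit is one of size, without a p-value. A fold against an undetected probe is the bright scaled signal over the lowest detected one of the dim array. It is not a strict bound, because an undetected probe can lie above that signal. Cd14 did so on the SoNar-high array (0.119, where the lowest detected signal was 0.113).

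The members and lists were chosen with earlier results of these data known. All 9 members are named; of each other list the genes past 2-fold and the highest and lowest are named, and any others were chosen after their values were seen. The gene step was tested on simulated data. Alternatives were other scalings, limma normexp (offset 50, on median spot signals because no mean signal is in the files), probe filters, the brightest probe, outlier spots kept, the series matrix, detection at 3 SD of the negative controls, and limits of 1.5-fold and 3-fold; setting the median gene to 0 was added after seeing the data. Software was Python 3.11.15, numpy 2.4.6, pandas 2.3.3, statsmodels 0.14.6, matplotlib 3.10.9, R 4.3.3 and limma 3.58.1.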

Additional observations from a re-analysis of the deposited data

How the results depend on the processing

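The count of cytarabine genes past 2-fold was 0 in the main processing. It became 3 under median scaling (Samhd1, Rrm2 and Cmpk1 higher, where 32.1% of all genes were at least 2-fold higher), 1 with the 75th percentile of detected probes (Dck lower, 8.09% of all genes lower), 1 with the median gene at 0 (Dck lower), and 1 with no filter on dim probes (Cda at -1.59, in part against background). A limit of 1.5-fold gave 4 and one of 3-fold gave 0; the count was also 0 under the other 8 alternatives. The members' median of 0.06 became 0.63 under median scaling, -0.23 with the 75th percentile of detected probes, -0.16 with the median gene at 0 and 0.30 with the brighter 50% of probes, which dropped Dck and Dctd. It moved by under the single-spot SD of 0.14 under the other 8, a yardstick of size and not the spread of a median. Its sign still changed with loess (-0.08), no filter on dim probes (-0.06) and the brightest probe (-0.04). Of all genes 2.97% to 33.5% were past 2-fold over the alternatives, against 6.79%, and 7.05% were at least 2-fold lower with the median gene at 0. Naming probes by a gene name column was not run, because the scanner files hold no such column. No paired analysis was possible because each group has 1 array and the labels give no replicate numbers. Signal over background limits Cda most, and 1 probe each carries Dck, Cmpk1, Slc29a1, Rrm1 and Rrm2.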
